A study of Mus musculus with 4 samples.

Results

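The matrix metalloproteinases (MMPs) examined here are Mmp2, Mmp3, Mmp8, Mmp9, Mmp12, Mmp13, Mmp14 and Mmp19, together with the tissue inhibitors Timp1 and Timp2. The genes were chosen by name, through the identifier that each symbol has in the GENCODE M21 annotation of the mouse, and 10 of 10 were found among the 54146 genes of the deposited count table. Transcripts were measured by RNA sequencing of tumor-associated macrophages (TAMs) from MCA205 tumors, a mouse fibrosarcoma grown under the skin of the right flank of female mice of 8 to 16 weeks. Control mice are labelled vehicle, and the treated mice were given propranolol, a blocker of beta-adrenergic receptors, at 0.5 g/L in the drinking water from the day on which the cancer cells were injected. Both groups carried the same tumor, and 2 libraries were made from each, numbered as replicates 1 and 2. The labels do not say whether a library came from 1 mouse or from several, so the p-values below measure the spread between these libraries. The libraries held 13798249 and 23018142 counts in the control group and 39818103 and 16424081 counts in the propranolol group.

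MMPs are zinc-dependent enzymes that cut the proteins of the extracellular matrix. Most are secreted as inactive precursors, held in check by a cysteine of the propeptide that sits on the zinc ion, and become active once furin, plasmin or another MMP removes that propeptide. TIMPs bind the active site and block it. In tumors, macrophages are a known source of several of these enzymes, and fibroblasts, neutrophils and the cancer cells make others.

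The zinc-binding site is what the 8 enzymes share, and its coding sequence is shown because it sets the MMPs apart from the TIMPs, in whose coding sequences it was not found. The site was read from the GENCODE M21 transcripts on GRCm38 as 11 codons, 33 bases, 5′ to 3′ on the coding strand. Capitals mark the codons of the 3 histidines that hold the zinc and of the glutamate that takes part in catalysis.
Mmp2: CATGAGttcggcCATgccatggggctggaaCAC
Mmp9: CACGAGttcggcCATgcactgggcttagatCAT
Mmp13: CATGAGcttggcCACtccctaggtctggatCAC
Mmp8: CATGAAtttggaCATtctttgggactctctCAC
Mmp3: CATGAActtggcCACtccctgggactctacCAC
Mmp12: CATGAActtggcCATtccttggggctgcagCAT
Mmp14: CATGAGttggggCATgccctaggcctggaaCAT
Mmp19: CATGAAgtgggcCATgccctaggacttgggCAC

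Pairs of these sequences were identical at 20 to 27 of the 33 bases, and 16 bases were the same in all 8. The site lay in coding exon sequence of every enzyme: in exon 8 of 13 for the gelatinases Mmp2 (chr8:92839279-92839311) and Mmp9 (chr2:164951133-164951165), and in exon 5 of 10 for Mmp14 (chr14:54437627-54437659), Mmp13 (chr9:7276573-7276605), Mmp8 (chr9:7563086-7563118), Mmp3 (chr9:7449775-7449807) and Mmp12 (chr9:7352914-7352946). In Mmp19 (chr10:128795673-128795705) it was in exon 5 of 9. All 8 genes are on the plus strand.

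The cells had been enriched for CD45 and sorted as live CD11b+F4/80+ cells, and the markers of macrophages were abundant in every library. The 14 macrophage markers summed to 35061 and 33310 CPM (counts scaled to a common, TMM-normalized library size) in the control libraries and to 43833 and 42596 CPM in the propranolol libraries, with Apoe the most abundant and no marker at 0. Transcripts of other cells were also present and differed between libraries. The 15 fibroblast markers summed to 3722 and 1425 CPM in the control libraries and to 822 and 858 CPM after propranolol, so that control replicate 1 held 2.61 times the level of control replicate 2 before any comparison of the groups. The 13 neutrophil markers summed to 159 and 186 CPM in the control libraries and to 327 and 342 CPM after propranolol. The 10 T and NK cell markers summed to 365 and 415 CPM against 171 and 85.3 CPM, the 8 endothelial markers to 48.6 and 44.0 CPM against 58.8 and 52.3 CPM, and the 7 dendritic cell markers to 41.5 and 39.2 CPM against 26.6 and 21.1 CPM.

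All 10 genes had enough counts for a test. A gene is called changed below when its adjusted p was under 0.05 in the edgeR quasi-likelihood test and its change exceeded 1.5-fold. By that rule 27.8% of all 14688 tested genes were changed, and 2 of the 10 listed genes (20%), a share near this background. Mmp9 was higher and Mmp2 was lower in TAMs of propranolol treated mice. The other 8 were not called, among them Mmp14, whose adjusted p passed but whose change stayed under 1.5-fold. Over all tested genes 12.2% were higher, 15.6% were lower and the median log2 fold change was -0.02, and the median of the 10 genes was 0.12. Leaving out control replicate 1 moved this median to 0.57, and leaving out control replicate 2 turned it to -0.21. The libraries of the groups did not overlap for 7 of the 10 genes, against 72.6% of all tested genes. The split of calls depended on the scaling: 1798 genes were higher and 2286 lower here, 609 and 3497 with library totals alone, which moved the median of all genes by -0.23 on the log2 scale, and 1121 and 730 after removal of the trend of each library with the GC content of genes (the GC correction).

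Among all tested genes, 27.8% were changed by the same rule, 15.6% lower and 12.2% higher. Beside these shares, all 10 T and NK cell markers were lower after propranolol (Trbc2, Cd3g and Nkg7 led, and Gzmb was the most abundant). Of 7 dendritic cell markers 3 were lower (Clec9a, Xcr1 and Cd209a, with Ccr7 the most abundant). Of 6 tested endothelial markers 1, Cdh5, was higher (16.7%, near the 12.2% of all tested genes that were higher), with Pecam1 the most abundant. Some of these calls depended on the setting. DESeq2 called neither Cd209a (-1.01) nor Cdh5 (0.79). Cdh5 was also not called with upper-quartile factors (0.71) or with library totals alone (0.53). Ncr1 of the T and NK cell list (-1.30), Xcr1, Cd209a and Cdh5 were not called after the GC correction, nor was Clec9a without control replicate 2 (-1.15), Cd209a without control replicate 1 (-0.75) or propranolol replicate 2 (-0.81), and Cdh5 in 3 of the 4 fits that left out a library (0.60 to 0.78). Of the macrophage markers, 2 of 14 were called, Csf1r higher (0.59) and Ptprc lower (-0.74), and 4 were called, 3 of them higher, without control replicate 1 or without propranolol replicate 2. Csf1r was under the fold limit without propranolol replicate 2 (0.55), with the filter on CPM (0.57), with upper-quartile factors (0.54), with library totals alone (0.36) and after the GC correction (0.32). Ptprc turned to 0.20 after the GC correction and was not called. The 1 macrophage marker called after that correction was Mrc1, which was higher (0.85, adjusted p = 0.000716 by edgeR).

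**Figure D1:**
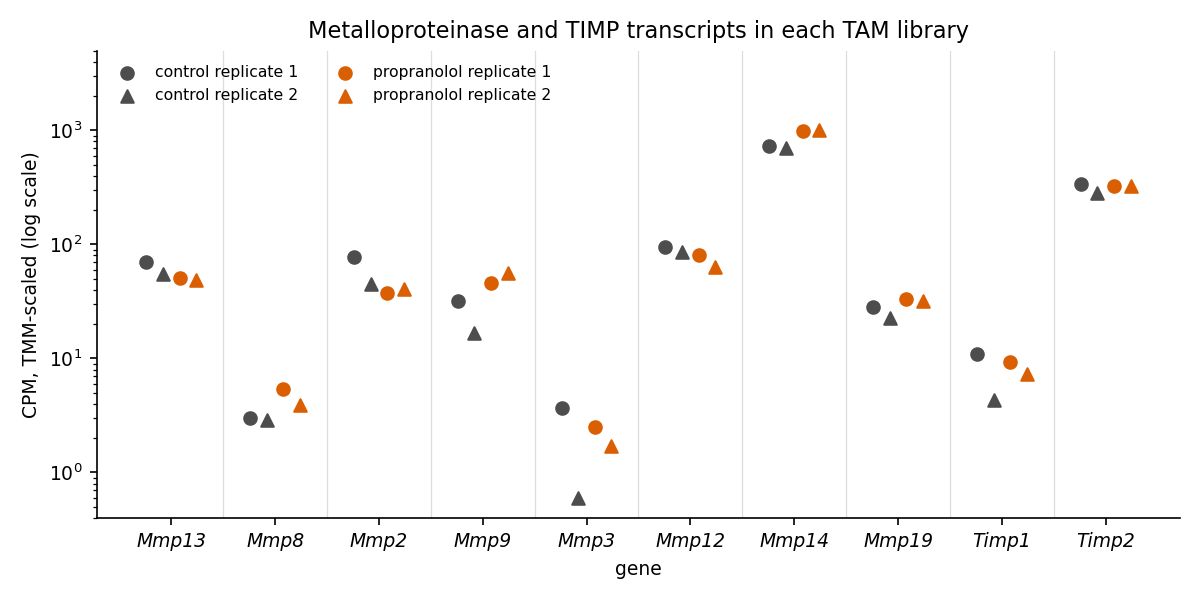
TMM-scaled CPM (log axis) of the 10 genes in each library, with control libraries in grey and propranolol libraries in orange. Both propranolol libraries lie above both control libraries for Mmp9 and Mmp14 and below them for Mmp2, while Mmp3 and Timp1 differ most between the control libraries.

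The gelatinases Mmp2 and Mmp9, which digest denatured collagen and the type IV collagen of basement membranes, moved in opposite directions. Mmp9 (ENSMUSG00000017737.2, chr2:164940780-164955850) had 471 and 423 counts in the control libraries against 1681 and 854 after propranolol. These are 31.8 and 16.9 CPM in control TAMs and 46.2 and 55.9 CPM after propranolol. The groups did not overlap, although the control libraries lay further apart than the propranolol libraries. The mean rose from 24.3 ± 10.5 CPM to 51.1 ± 6.86 CPM (SD over 2 libraries in each group), and the log2 fold change was 1.09 (standard error, SE, 0.24, adjusted p = 0.00515 by edgeR) or 2.12-fold. Left-out control libraries moved the size, to 1.65 without control replicate 1 and 0.70 without control replicate 2. In DESeq2 the log2 fold change was 1.09, and the adjusted p of its Wald test, 0.0487, passed only narrowly. After the GC correction it was 0.78, again close to the limit (adjusted p = 0.0441 by edgeR).

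The change of Mmp2 (ENSMUSG00000031740.8, chr8:92827291-92853420) rested on 1 library. It had 1156 and 1130 counts in the control libraries against 1355 and 625 after propranolol, which are 77.95 and 45.0 CPM in control TAMs and 37.3 and 40.9 CPM after propranolol. Control replicate 1 stood high, and control replicate 2 was close to the propranolol libraries, with no overlap between the groups. The mean fell from 61.5 ± 23.3 CPM to 39.1 ± 2.59 CPM (SD over 2 libraries in each group), and the log2 fold change was -0.65 (SE 0.21, adjusted p = 0.0316 by edgeR). Without control replicate 1 the log2 fold change was -0.15 (adjusted p = 0.577 by edgeR, with a range of 2.95e-07 to 0.577 over the alternatives), and without control replicate 2 it was -0.98. Without propranolol replicate 1 or without a filter on low counts it was -0.57, just under the fold limit, and at -0.63 in DESeq2 the adjusted p of its Wald test, 0.202, did not pass.

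The same control library held the most fibroblast transcripts. Mmp2 was not alone among the listed genes in being higher there. In CPM, control replicate 1 was 1.73 times control replicate 2 for Mmp2, 1.88 for Mmp9, 2.54 for Timp1 and 6.09 for Mmp3. For the rest of the listed genes this ratio was 1.03 to 1.27. Of the 15 fibroblast markers, 12 were lower after propranolol (80%, beside 15.6% of all tested genes that were lower) and none was at 0 in any library. Without control replicate 1, 7 were lower, and Col1a1, Col1a2, Fap, Sparc and Twist1 were no longer called. DESeq2 called 9 lower with all libraries, without Col1a1, Col1a2 and Sparc. The most abundant, the collagen gene Col1a1, had 905 and 375 CPM in the control libraries against 247 and 277 CPM after propranolol. Postn, Lox and Prrx1 had the largest falls, with log2 fold changes of -2.54, -2.12 and -2.11, and without control replicate 1 these were -1.40, -1.08 and -1.14, while Col1a1, at -1.29 with all libraries, was -0.46 and no longer changed. After the GC correction Postn (-1.21), Dcn (-0.87) and Fap (-0.64) were not called. The summed neutrophil markers moved with Mmp9 between the groups but not within the control group, where Mmp9 was higher in replicate 1 and the sum in replicate 2. Single markers went either way there, with S100a9 and Cxcr2 higher in control replicate 2, and S100a8 (14.7 against 12.5 CPM) and Padi4 (11.3 against 6.50 CPM) higher in control replicate 1, as Mmp9 was. Of 8 tested neutrophil markers 5 were higher (62.5%, beside 12.2% of all tested genes that were higher), led by S100a9, also the most abundant (19.2 and 21.05 CPM in control and 83.8 and 82.4 CPM in propranolol libraries), S100a8 and Cxcr2, with log2 fold changes of 2.04, 1.33 and 1.31. The other 3 were not called, and 1 of the 8 had a negative log2 fold change (-0.33). The defining gene Ly6g had 0 and 2 counts in the control libraries against 17 and 8 after propranolol. Camp was also at 0 in control replicate 1, Elane in control replicate 2 and in propranolol replicate 2, and Mpo in propranolol replicate 2. What part these cells had in the values of Mmp2 and Mmp9 was not tested, and fewer cells of a type and less RNA per cell cannot be told apart in bulk libraries.

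**Figure D2:**
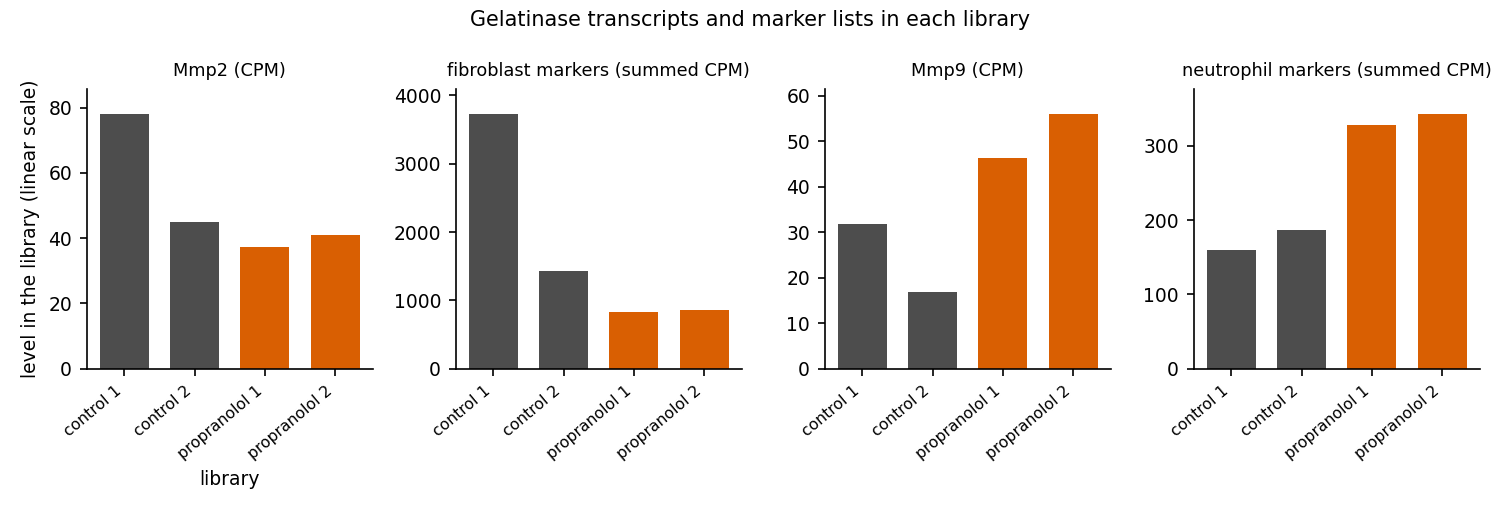
Level in each library (linear axes from 0) of Mmp2 beside the summed CPM of the fibroblast markers, and of Mmp9 beside the summed CPM of the neutrophil markers, with control in grey and propranolol in orange. Mmp2 and the fibroblast markers are both highest in control replicate 1 (77.95 and 3722 CPM), and Mmp9 and the summed neutrophil markers are both higher in the propranolol libraries. Mmp9 is also higher in control replicate 1 (31.8 CPM) than in control replicate 2 (16.9 CPM).

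Per length of transcript the balance of the gelatinases changed sides. In TPM, which divides the counts of a gene by its exon length and sets them against the whole library, the level of Mmp9 was 0.388 and 0.357 times that of Mmp2 in the control libraries against 1.18 and 1.30 times after propranolol. Mmp2 was thus the more abundant gelatinase transcript in both control libraries and Mmp9 in both propranolol libraries.

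None of the other secreted enzymes was called. Mmp13, Mmp12, Mmp3 and Mmp8 lie with 6 further MMP genes in a cluster of 427072 bases (chr9:7272514-7699585). Mmp12, the macrophage elastase, and Mmp13, a collagenase that cleaves fibrillar collagen, were its abundant members. Mmp12 (ENSMUSG00000049723.14, chr9:7344381-7369499) had 1411 and 2138 counts in control and 2939 and 975 in propranolol libraries, or 95.1 and 85.2 CPM against 80.8 and 63.9 CPM. Mmp13 (ENSMUSG00000050578.10, chr9:7272514-7283331) had 1039 and 1389 counts against 1849 and 750, or 70.1 and 55.4 CPM against 50.9 and 49.1 CPM. For both genes the propranolol libraries lay below the control libraries by a small margin.

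The log2 fold changes were -0.31 for Mmp12 (SE 0.13, adjusted p = 0.0787) and -0.32 for Mmp13 (SE 0.13, adjusted p = 0.0725), both by edgeR. Left-out libraries moved both. Mmp12 was at -0.13 without propranolol replicate 2 and at -0.18 when control replicate 1 was left out, while leaving out propranolol replicate 1 gave -0.49 (adjusted p = 0.00580 by edgeR, and 0.00104 to 0.500 over the alternatives). Mmp13 was at -0.09 without control replicate 1 and -0.47 without control replicate 2 (adjusted p = 0.0209 by edgeR, and 0.00753 to 0.742 over the alternatives). Both genes are low in GC content (40.3% for Mmp12 and 41.7% for Mmp13), and their sign depended on the treatment of GC content. Across 14680 tested genes, which are not independent, the log2 fold change rose with GC content with a Spearman correlation of 0.577, and after removal of each library's trend with GC content the log2 fold changes were 0.52 for Mmp12 and 0.36 for Mmp13. No direction can be stated for either gene. Mmp12 shares 157 exon bases with Mmp1b on the other strand, which had no counts.

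Mmp8, the collagenase stored in neutrophil granules, and Mmp3, a stromelysin that cleaves many matrix proteins and activates other MMPs, were rare. Mmp8 (ENSMUSG00000005800.3, chr9:7558456-7568485) had 45 and 73 counts in the control libraries against 198 and 60 after propranolol, or 3.03 and 2.91 CPM against 5.45 and 3.93 CPM. Both propranolol libraries were above both control libraries, and the log2 fold change of 0.67 (SE 0.32, adjusted p = 0.112 by edgeR) did not pass and was 0.41 without propranolol replicate 1. After the GC correction Mmp8 was changed, with a log2 fold change of 1.18 (adjusted p = 0.0216 by edgeR, and 0.0130 to 0.515 over the alternatives). The 5 neutrophil markers called higher moved in the same direction, while 1 of the 8 tested had a negative log2 fold change. The part of neutrophil transcripts was not tested.

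Mmp3 (ENSMUSG00000043613.8, chr9:7445822-7455975) had 54 and 15 counts in the control libraries against 91 and 26 after propranolol. Its 3.64 and 0.598 CPM in control TAMs enclosed the 2.50 and 1.70 CPM after propranolol. The control libraries alone spanned more than the whole propranolol group, and the log2 fold change was 0.07 (SE 0.68, adjusted p = 0.940 by edgeR). It was 1.88 without control replicate 1, where Mmp3 was called changed, and -0.75 without control replicate 2, so that no direction can be stated.

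The remaining members of the cluster were rare or silent in these cells. Mmp10, a stromelysin, had 16 and 9 counts in control and 22 and 8 in propranolol libraries, and Mmp27 had 8 and 12 against 33 and 0. Mmp7 had 2 counts in all, and Mmp1a, Mmp1b and Mmp20 had 0 counts in the 4 libraries. Mmp12 and Mmp13 thus gave nearly all transcripts of the cluster.

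**Figure D3:**
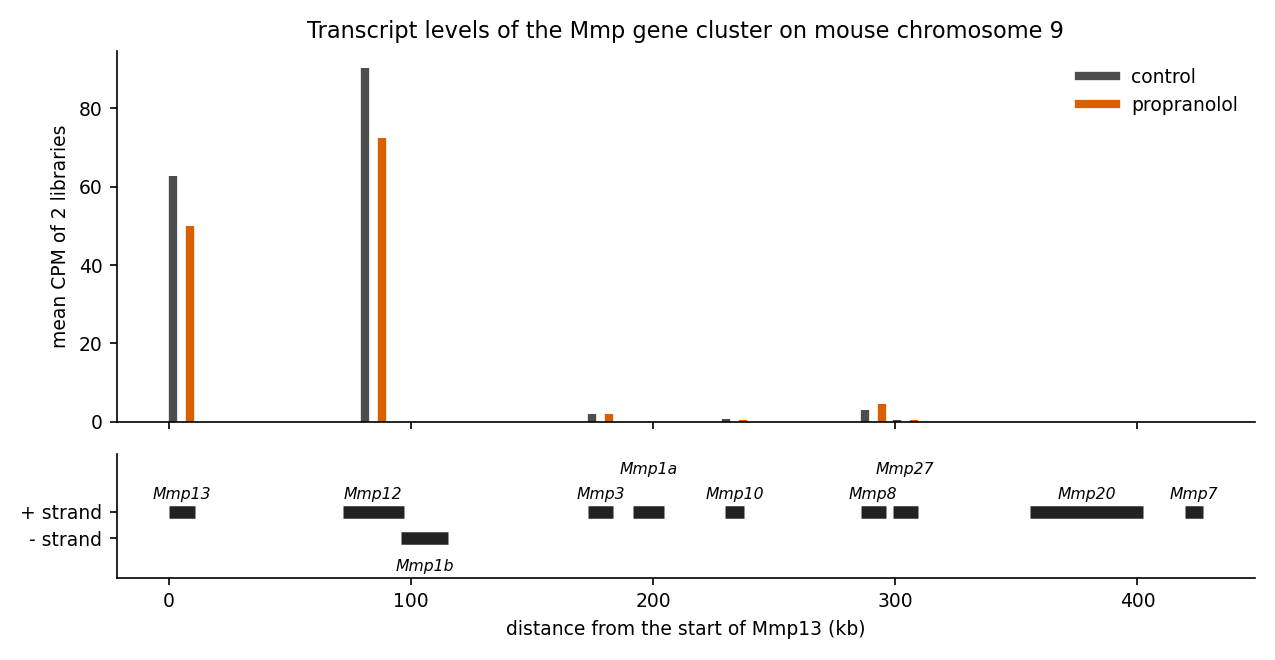
Mean CPM of 2 libraries per group (linear axis, control in grey and propranolol in orange) for the 10 MMP genes of the chromosome 9 cluster, above a map of the genes by strand with distance from the start of Mmp13 in kb. Mmp13 (62.7 and 49.98 CPM) and Mmp12 (90.2 and 72.3 CPM) lie far above the other 8 genes.

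Promoters of Mmp13, Mmp12 and Mmp3 are shown because all 3 hold the same letters close to the start site while their transcripts differ widely in level, and that of Mmp14, the most abundant transcript, for contrast. RefSeq gave promoters on GRCm38.p6 for 7 of the 10 genes (all but Mmp2, Mmp9 and Mmp19), in windows from 250 bases before to 50 bases after the start site. Each sequence below runs from 120 bases before the start site to 30 bases from it, on the plus strand. Capitals mark the AP-1 element TGANTCA, bound by Fos and Jun proteins, and the letters TATAAA of the TATA box, both searched on both strands, and they did not overlap.
Mmp13: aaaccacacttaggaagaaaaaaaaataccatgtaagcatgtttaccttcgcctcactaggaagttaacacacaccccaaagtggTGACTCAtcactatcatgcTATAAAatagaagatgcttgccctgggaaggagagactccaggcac
Mmp12: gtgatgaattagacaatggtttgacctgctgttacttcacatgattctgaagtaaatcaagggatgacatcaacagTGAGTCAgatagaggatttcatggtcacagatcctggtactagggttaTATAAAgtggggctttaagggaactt
Mmp3: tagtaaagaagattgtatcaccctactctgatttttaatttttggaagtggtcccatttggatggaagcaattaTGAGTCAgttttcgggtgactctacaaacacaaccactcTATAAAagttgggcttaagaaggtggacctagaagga
Mmp14: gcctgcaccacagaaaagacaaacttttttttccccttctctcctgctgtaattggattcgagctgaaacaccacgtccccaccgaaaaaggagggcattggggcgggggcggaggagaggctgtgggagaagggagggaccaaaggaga

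The windows are chr9:7272394-7272543 for Mmp13, chr9:7347254-7347403 for Mmp12, chr9:7445702-7445851 for Mmp3 and chr14:54431478-54431627 for Mmp14. RefSeq lists a second window for Mmp12 (chr9:7344277-7344426), which held neither motif. The AP-1 letters began 35 bases before the start site in Mmp13, 44 in Mmp12 and 46 in Mmp3, and in none of the other windows of the listed genes. They are found in 7.81% of the 32851 RefSeq promoters of the same length, and TATAAA in 13.6%. TATAAA began 16 bases before the listed start site in Mmp13 and 7 before it in Mmp3, and in Mmp12 it lay after the start site, at position 5. Mmp8 had TATAAA alone, on the minus strand. The cAMP response element TGACGTCA, found in 1.79% of promoters, was in none of the windows of the listed genes. A match of letters is a description and was not tied to binding of any factor here.

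Mmp14 was the most abundant of the 10 transcripts and had little spread within the groups. It encodes MT1-MMP, an enzyme anchored in the cell membrane that cleaves collagen around the cell and activates the precursor of MMP2. Mmp14 (ENSMUSG00000000957.11, chr14:54431612-54445364) had 10780 and 17720 counts in the control libraries against 36146 and 15266 after propranolol. The libraries had 727 and 706 CPM in control TAMs and 994 and 999.7 CPM after propranolol, well apart. The mean was 717 ± 14.6 CPM in control and 997 ± 3.98 CPM in propranolol libraries (SD over 2 libraries in each group). The log2 fold change was 0.48 (SE 0.09, adjusted p = 0.00185 by edgeR), a change of 1.39-fold that is under the limit of 1.5-fold. At any fold, 42.2% of all tested genes and 3 of the 10 listed genes, Mmp2, Mmp9 and Mmp14, had an adjusted p under 0.05. The log2 fold change of Mmp14 kept its sign under every alternative run and was lowest after the GC correction, at 0.21 (adjusted p = 0.121 by edgeR, and 1.73e-07 to 0.121 over the alternatives).

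Mmp19, a secreted enzyme that cleaves basement membrane proteins, showed a smaller difference. Mmp19 (ENSMUSG00000025355.7, chr10:128790910-128800824) had 420 and 564 counts in control and 1203 and 488 in propranolol libraries, or 28.3 and 22.5 CPM against 33.1 and 32.0 CPM. The propranolol libraries lay just above the higher control library, and the log2 fold change was 0.36 (SE 0.14, adjusted p = 0.0665 by edgeR). Without control replicate 1 it was 0.59 and was called changed, and without control replicate 2 it was 0.22. Of its 3533 exon bases, 789 are shared with Tmem198b and 212 with Gm47093, both on the other strand, and since the stated counting options name no strand, reads of these genes cannot be told apart there.

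Neither inhibitor was called. TIMP2 blocks most MMPs and also bridges MT1-MMP to the precursor of MMP2 at the cell surface. Timp2 (ENSMUSG00000017466.9, chr11:118301069-118355740, minus strand) had 5065 and 7039 counts in control and 11922 and 4991 in propranolol libraries, or 342 and 281 CPM against 328 and 327 CPM. The propranolol libraries fell between the control libraries, with a log2 fold change of 0.07 (SE 0.11, adjusted p = 0.621 by edgeR). It was negative without control replicate 2 (-0.045), after the GC correction (-0.17) and with library totals alone (-0.16).

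TIMP1, the inhibitor that binds the precursor of MMP9, was far rarer at the transcript level. Timp1 (ENSMUSG00000001131.11, chrX:20870166-20874735, plus strand) had 162 and 108 counts in control and 337 and 112 in propranolol libraries. Its 10.9 and 4.30 CPM in control TAMs enclosed the 9.27 and 7.33 CPM after propranolol. The higher control value came from control replicate 1, and the log2 fold change was 0.17 (SE 0.37, adjusted p = 0.748 by edgeR). It was 1.01 without control replicate 1, where Timp1 was called changed, and -0.37 without control replicate 2. It was also negative without propranolol replicate 1 (-0.03), after the GC correction (-0.028) and with library totals alone (-0.065).

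**Figure D4:**
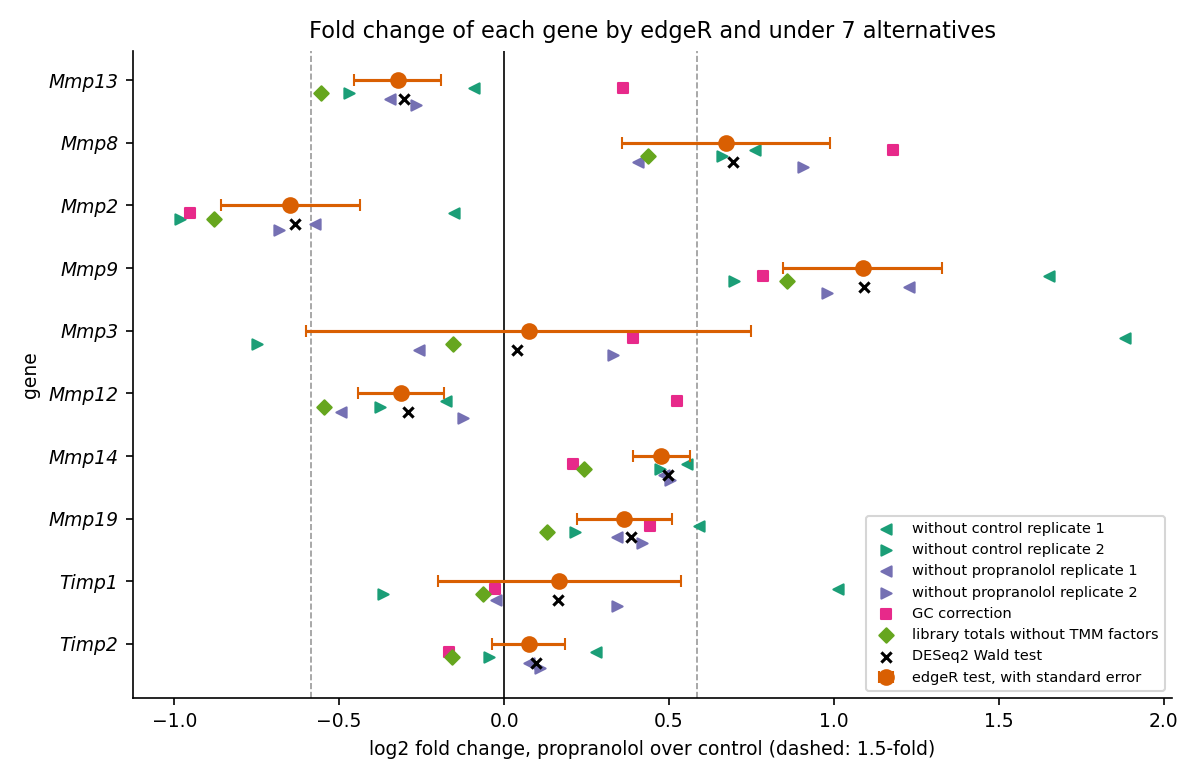
Log2 fold change (propranolol over control) of each gene by the edgeR test, with its standard error as a bar, and the values under 7 alternatives as smaller symbols, with dashed lines at 1.5-fold. Mmp9 lies between 0.70 and 1.65, Mmp2 lies near 0 only without control replicate 1 (-0.15), and the signs of Mmp3, Mmp12, Mmp13, Timp1 and Timp2 differ between settings.

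Levels of the 10 transcripts were compared per length. The mean TPM over the 4 libraries was 435 for Mmp14, with a range of 399 to 482 TPM, and 251 for Timp2, with a range of 232 to 287 TPM. These led all others, and their ranges did not overlap each other or that of the next gene. The means then followed as 65.2 TPM for Mmp13, 46.5 for Mmp2, 34.7 for Mmp12, 31.7 for Mmp9, 27.3 for Timp1 and 24.9 for Mmp19. From Mmp13 to Mmp19 the range of each gene overlapped that of its next neighbour. Mmp13 was above Mmp2 in all 4 libraries, and its range of 52.5 to 85.8 TPM lay above those of Mmp12, Mmp9, Timp1 and Mmp19, while the range of Mmp2 lay above that of Mmp19. Mmp8 and Mmp3 came last, with means of 4.75 and 3.57 TPM and overlapping ranges, and the range of Mmp8 lay below that of Mmp19.

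The share of Mmp14 among the transcripts of the 10 genes was 40.03% and 46.7% in the control libraries against 50.7% and 51.4% after propranolol. The summed level of the 8 MMPs was 2.05 and 2.30 times that of the 2 TIMPs in control libraries and 2.47 and 2.54 times in propranolol libraries. Both measures were higher in both propranolol libraries, and with 2 libraries against 2 an exact two-sided permutation test cannot give a p below 0.333. Over the 4 libraries the share of Mmp14 was 47.1%, and 60.0% when the longest transcript of each gene was taken as its length, which also put Mmp12 above Mmp2 in the order.

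The rest of the family was low. Of 17 further MMP and TIMP genes, 7 had enough counts for a test and 1 was changed (14.3%, below the 27.8% of all tested genes). This was Timp3, an inhibitor that is bound to the matrix, with 60 and 51 counts in the control libraries against 19 and 17 after propranolol. The log2 fold change of Timp3 was -1.95 (SE 0.55, adjusted p = 0.0177 by edgeR). It was no longer called without control replicate 1 (-1.32), without propranolol replicate 1 (-1.42) or after the GC correction (-1.70), and 1733 of its 8144 exon bases are shared with Syn3 on the other strand. Mmp25, a membrane-bound enzyme of leukocytes, was the only one of these 17 genes above 20 CPM, with 23.4 and 30.1 CPM in the control libraries against 25.9 and 21.2 CPM after propranolol, which overlap (log2 fold change -0.19). Mmp11, Mmp10, Mmp17, Mmp23 and Mmp27 had log2 fold changes of -0.57, -0.26, 1.02, -0.03 and 0.06 on at most 79 counts in a library, and none was called. The 10 genes without a test included Mmp15, Mmp16, Mmp24 and Mmp28, with no more than 16 counts in any library.

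Of 9 tested genes that take part in the activation of MMP precursors, 4 were higher and 1 lower (55.6%, beside 27.8% of all tested genes), and the median log2 fold change was 0.37, and 0.77 without control replicate 1. The higher genes were Plaur, the receptor of urokinase, with 101 and 98.7 CPM in control and 209 and 209 CPM in propranolol libraries, the proprotein convertase genes Furin and Pcsk7, and Anxa2, a surface receptor of plasminogen. Their log2 fold changes were 1.07, 0.72, 1.09 and 0.98, and Furin was under the fold limit after the GC correction (0.41) and with library totals alone (0.49). Plau, which encodes urokinase and was the most abundant of the list, had 485 and 528 CPM against 683 and 625 CPM, a log2 fold change of 0.37 (SE 0.10, adjusted p = 0.0119 by edgeR) that was under the fold limit. Plat, the tissue activator of plasminogen, had 11.9 and 4.78 CPM in control and 3.03 and 1.31 CPM in propranolol libraries, a log2 fold change of -1.85, and of -1.02 without control replicate 1. Plg, the gene of plasminogen itself, had 0 counts in the 4 libraries.

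Other inhibitors, clearance receptors and binding partners of MMPs came to 13 tested genes, with 4 higher and 2 lower (46.2%, beside 27.8% of all tested genes). Their median log2 fold change was 0.15, and with a library left out it lay between 0.02 (without control replicate 2) and 0.38 (without control replicate 1). Lrp1, an endocytic receptor that clears MMPs and TIMPs from outside the cell, had 2070 and 2305 CPM in the control libraries against 4394 and 5885 CPM after propranolol (log2 fold change 1.23). Thbs1, a secreted glycoprotein of the thrombospondin family, had 464 and 374 CPM against 1094 and 1572 CPM (log2 fold change 1.67). Lcn2 encodes the lipocalin whose human form is found bound to MMP9 in neutrophils. Lcn2 had 11 and 38 counts in control against 220 and 88 in propranolol libraries (log2 fold change 2.33). Its rise went with that of the 5 neutrophil markers called higher, whose part was not tested. Bsg, known as an inducer of MMPs, had a log2 fold change of 0.64. Thbs2 and the integrin gene Itgav were lower, with log2 fold changes of -1.70 and -0.61, and that of Thbs2, at 81.9 and 26.1 CPM in control and 16.4 and 16.3 CPM in propranolol libraries, was -0.62 without control replicate 1 and was not called by DESeq2. Itgav was under the fold limit without control replicate 1 (-0.54) or propranolol replicate 1 (-0.55). Neither Bsg (0.30) nor Itgav (-0.11) was called after the GC correction.

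Among the related ADAM and ADAMTS proteases, 22 of 32 genes were tested, 4 were higher and 4 lower (36.4%, near the 27.8% of all tested genes), and the median log2 fold change was -0.68, and -0.24 without control replicate 1. Adam8, a membrane protease of myeloid cells, was the most abundant, with 408 and 539 CPM in control and 1351 and 1293 CPM in propranolol libraries (log2 fold change 1.48, SE 0.13, adjusted p = 0.000103 by edgeR). The groups were far apart for Adam8. Adam33 (1.19), Adam15 (0.83) and Adamts10 (0.67) were also higher on the log2 scale, and Adam33 was at 1.79 without control replicate 2. Adamts10 was not called without control replicate 1 (0.57) or propranolol replicate 2 (0.47). Adamts12 (-1.74), Adamts14 (-0.92), Adam10 (-0.72) and Adam19 (-0.62) were lower, of which Adamts12 was not called without control replicate 1 (-0.51) or propranolol replicate 2 (-1.48), and Adam19 was not without control replicate 1 (-0.43). After the GC correction Adam33 (0.85), Adam15 (0.49), Adamts10 (0.33), Adamts12 (-1.49) and Adam10 (-0.079) were not called. Adam9 had 302 and 291 CPM against 315 and 309 CPM and was not called. Adamts1 was not called either, but gained a call as lower in DESeq2 (-1.16) and with upper-quartile factors (-1.22). The same held for Adamts1 with library totals alone (-1.39) and without a filter on low counts (-1.09). The list depended on the control libraries, with 5 genes changed without control replicate 1 and 13 without control replicate 2.

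Among matrix proteins that MMPs cut, 9 of 13 tested genes were lower and 2 higher (84.6%, beside 27.8% of all tested genes), and the median log2 fold change was -1.38. Without control replicate 1 the median of the 13 genes was -0.31. The lower genes were Eln, Col5a1, Col4a1, Col4a2, Col6a1, Nid1, Fbn1, Hspg2 and Lamb1. Eln had a log2 fold change of -1.84, Col5a1 of -1.69, Col4a1 of -1.65 and Nid1 of -1.59. Col4a1 had 119 and 41.1 CPM in control and 23.3 and 27.6 CPM in propranolol libraries, and control replicate 1 was the highest library for each of these 4 genes, as for the fibroblast markers. Without control replicate 1 their log2 fold changes were -0.44, -0.78, -0.64 and -0.56, and Eln and Nid1 were no longer called. The list then had 3 lower genes (Col5a1, Col4a1 and Fbn1) and 3 higher (Fn1, Spp1 and Vcan), and DESeq2 with all libraries called 3 lower (Col5a1, Fbn1 and Eln) and 2 higher. The part of fibroblast transcripts in these values was not tested. Fn1 and Spp1, which macrophages are known to make, were higher. Fn1, which encodes fibronectin, had 2284 and 2062 CPM against 4265 and 3700 CPM (log2 fold change 0.87). Spp1, which encodes osteopontin, had 207 and 166 CPM against 588 and 515 CPM (log2 fold change 1.57).

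Transcription factors known to act on MMP promoters numbered 21, all tested, of which 3 were higher and 4 lower (33.3%, near the 27.8% of all tested genes). Their median log2 fold change was 0.35, and 0.07 after the GC correction. The AP-1 genes did not move one way. Junb and Fos, the most abundant, had 694 and 785 CPM against 888 and 967 CPM and 576 and 677 CPM against 750.5 and 900.3 CPM, log2 fold changes of 0.33 and 0.40 that were under the fold limit. Jun was higher (0.61) and Jund lower (-0.90, with 122 and 127 CPM in control and 67.9 and 65.3 CPM in propranolol libraries). Egr1 (0.68) and Ets2 (0.61) were higher, and Ets1 (-1.15), Runx2 (-0.83) and Rel (-0.64) lower on the log2 scale. After the GC correction Jun (0.30), Ets2 (0.43), Egr1 (0.33) and Rel (-0.033) were no longer called, and Nfkb1 (0.65) was called higher. Without that correction Egr1 was under the fold limit without propranolol replicate 2 (0.47), Jun without that library (0.52) or control replicate 1 (0.47), Ets2 without propranolol replicate 1 (0.58), and Rel without control replicate 2 (-0.46) or propranolol replicate 1 (-0.52). With upper-quartile factors Jun (0.55) and Ets2 (0.56) were under the fold limit, as was Rel without a filter on low counts (-0.56). Spi1 gained a call as higher in DESeq2 (0.60) and without that filter (0.65), and Fosl1 as lower with the replicate number as a block (-0.76). With library totals alone, which shift all genes by -0.23, none of the 21 was called higher.

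**Figure D5:**
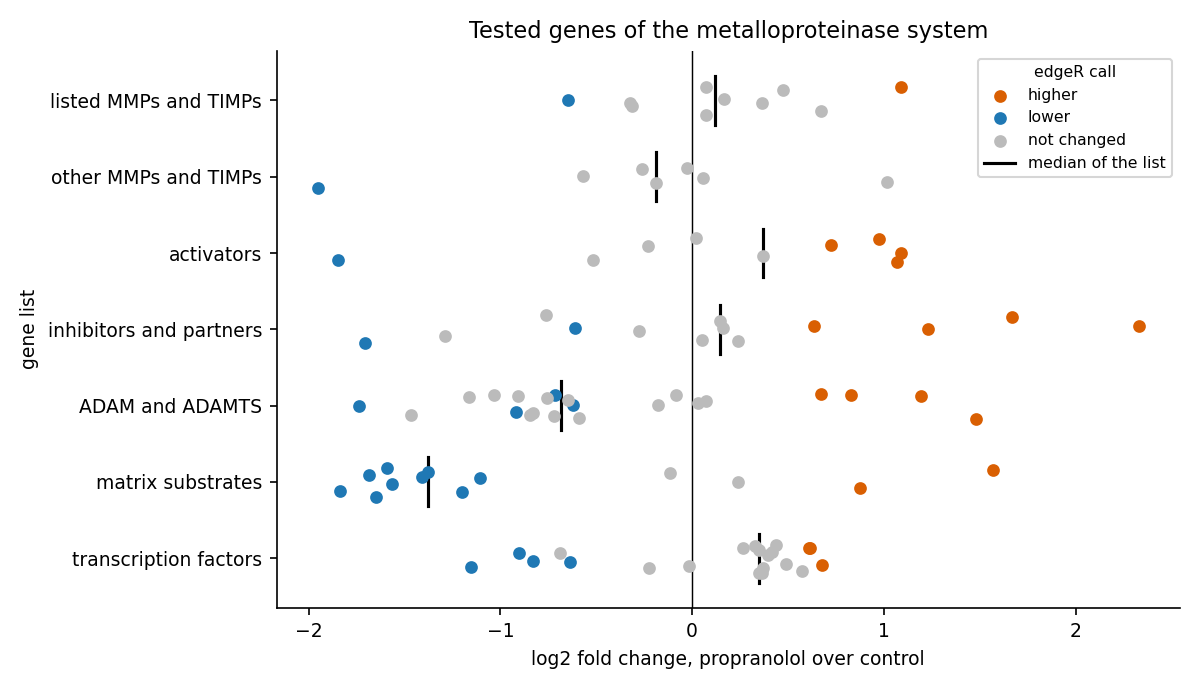
Log2 fold change (propranolol over control) of each tested gene in the 7 lists of the metalloproteinase system, coloured by the edgeR call, with a black bar at the median of each list. With all libraries the matrix substrates have the lowest of the 7 medians (-1.38, against -0.31 without control replicate 1, which is not plotted), and the listed MMPs and TIMPs lie near 0 (0.12) with 1 gene called on each side.

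The tested genes whose values over the 4 libraries were nearest to those of Mmp14, by Euclidean distance of log2(CPM + 0.5) centred on each gene's mean, were Reep4 (0.0118), Dglucy (0.0137) and Emc10 (0.0177).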

How the data were processed

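Poly-adenylated RNA of sorted TAMs was sequenced in 4 libraries, 2 per group. The authors deposited raw counts of fragments for each gene. According to the submitters' processing notes and the study's methods, reads were aligned to mm10 with STAR 2.7.1a, alignments with a mapping quality above 30 were kept with SAMtools 1.9, and exons of GENCODE genes were counted with featureCounts 1.6.4 for paired reads. The annotation release is not given in the sources used here. The stated counting options include none for strand, and the default of featureCounts is to ignore strand. The notes also name DESeq2 1.39.0, while the study's methods give a different version of DESeq2. Columns were matched to libraries by the number in their labels, and 0 columns were left out.

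Identifiers were matched to GENCODE M21 on GRCm38, which named 54079 genes and left 67 unnamed. The software was edgeR 4.0.16, DESeq2 1.42.0 and limma 3.58.1 under R 4.3.3. Genes passing filterByExpr at a minimum count of 10 were compared with TMM factors, the edgeR quasi-likelihood test without covariates and Benjamini-Hochberg adjustment over all 14688 tested genes. The standard error is the log2 fold change divided by the square root of F. Replicates differed by more than sampling noise, the chi-square statistic divided by its degrees of freedom being 11.8 for control and 15.1 for propranolol libraries. Depth limits the genes with few counts, and p-values cover these libraries only. Steps were tested on simulated data.

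The listed genes and the further lists were chosen with earlier results of these data known. Genes named were all listed genes, every other tested MMP and TIMP gene, the 4 largest changes and 2 most abundant genes of each further list, and for marker lists the most abundant gene and up to 3 changed genes. Further genes of short lists, Ly6g, Camp, Elane, Mpo and genes lost with a library left out were named after their values were seen. Of the genes nearest in pattern, those of Mmp14 are given, and those of Mmp9 are not reported here. The GC correction removed from each library, through offsets, a spline (natural, degrees of freedom 5) of log2 CPM on GC content. The other alternatives were DESeq2's Wald test, DESeq2 or upper-quartile factors, no filter, a stricter filter (CPM of 1 or more in both libraries of either group), omission of each library, a replicate block, a log2 limit of 1.5, the longest transcript as length and, added after the data were seen, library totals without TMM factors. Where a library was omitted, the spread of the group left with 1 library was taken from the other group. Motifs and coding sites were found by exact matching. Protein sequences were not used here.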

Additional observations from a re-analysis of the deposited data

How the results depend on the processing

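Of 130 values (10 genes under 13 alternatives), 106 kept their sign and their call (adjusted p and fold limit together), 4 lost the call, 5 gained it and 15 changed sign. Among the 106, the adjusted p alone crossed its limit for Mmp14 after the GC correction and under some settings for Mmp12, Mmp13 and Mmp19. Mmp9 was changed under all 13, with log2 fold changes of 0.70 to 1.65. Its adjusted p was close to the limit in the Wald test of DESeq2 (0.0487) and by edgeR after the GC correction (0.0441). Mmp2 lost its call in the DESeq2 test, without a filter and without control replicate 1 or propranolol replicate 1, and calls were gained by Mmp8 after both GC corrections and by Mmp3, Mmp19 and Timp1 without control replicate 1. The signs that turned were those of Mmp3 without control replicate 2 (-0.75), without propranolol replicate 1 (-0.26) and with library totals alone (-0.16), Mmp12 (0.52 and 0.52) and Mmp13 (0.36 and 0.36) after the GC correction without and with the replicate block, Timp1 after the GC correction (-0.028), without control replicate 2 (-0.37), without propranolol replicate 1 (-0.03) and with library totals alone (-0.065), and Timp2 after the GC correction (-0.17), with the block added (-0.16), without control replicate 2 (-0.045) and with library totals alone (-0.16). With a library left out, the highest values of Mmp3 (1.88), Timp1 (1.01) and Timp2 (0.28) were those without control replicate 1.

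The number of listed genes changed, 2, was 1 in DESeq2 and 1 without a filter (Mmp9 in both), 0 at a log2 limit of 1.5, and 1 to 4 with a library left out (Mmp3, Mmp9, Mmp19 and Timp1 without control replicate 1). All genes changed, 4084, numbered 1851 after the GC correction, 2120 with the block added, 728 at the log2 limit and 3615 to 4329 with a library left out. At that limit 1 activator, 3 inhibitors and partners, 1 ADAM or ADAMTS gene, 6 matrix substrates and 0 transcription factors were changed. After the GC correction 0 other MMP and TIMP genes, 3 ADAM and ADAMTS genes and 4 transcription factors were changed. DESeq2 called 5 matrix substrates, and 4 transcription factors were changed with library totals alone. With a library left out the counts ran from 0 to 1 for other MMPs and TIMPs, 5 to 5 for activators, 5 to 7 for inhibitors and partners, 5 to 13 for ADAM and ADAMTS genes, 6 to 11 for substrates and 6 to 10 for transcription factors. The share of Mmp14 was 60.0% with the longest transcript, against 47.1%. The cause of these shifts was not tested. Same-numbered libraries deviated together with a correlation of 0.169, with 2 pairs too few to pair them, and with the replicate number as a block 2 listed genes and 4362 of all genes were changed.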
